A study of Mus musculus with 6 samples.

Results

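Mitochondrial complex I is the entry point for electrons from NADH into the respiratory chain, and its nuclear-encoded subunits were taken here as the genes whose symbol is Nduf followed by a, ab, b, c, s or v and a number. This rule, which uses no measured value and leaves out the Ndufaf assembly factors, found 37 of the 26881 genes in the table. Heart RNA was sequenced from Cfp1-cKO mice at 2 weeks of age (3 libraries), when these animals begin to die, and from WT mice of the same age (3 libraries). Cfp1-cKO stands for Myh6-Cre: Cfp1 flox/flox on the C57BL/6 background, in which the Myh6 promoter restricts Cre to cardiomyocytes, so that the other cells of the heart keep Cfp1. The WT mice are described as wild-type or littermate controls, without their exact alleles. Cfp1, encoded by Cxxc1, belongs to the Setd1 complexes that methylate lysine 4 of histone H3. Whole hearts were drained of blood, and the sources used here do not say whether a library is 1 heart or a pool, and the p-values therefore cover the spread between libraries, part of which may be technical.

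Complex I has the shape of an L. Its matrix arm oxidises NADH and passes electrons along iron-sulfur clusters to ubiquinone, and its membrane arm pumps protons. The catalytic core is made of a set of nuclear-encoded subunits in the matrix arm (Ndufs1, Ndufs3, Ndufs7, Ndufs8, Ndufv1 and Ndufv2 among them) and of the ND subunits in the membrane arm, which are encoded by the mitochondrial genome. The remaining nuclear-encoded subunits are accessory, and many are needed to assemble the complex or keep it stable. Cardiomyocytes are packed with mitochondria, and heart muscle is among the tissues with the highest levels of these transcripts.

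The values are FPKM, fragments per kilobase of exon set against the size of the library, from libraries of 16672652 to 22700811 fragments. FPKM are set per length, so the level of 1 gene beside another also depends on the length used. The lengths were 5628 bases for Ndufb2, 6883 for Ndufab1, 3146 for Ndufb8, 4522 for Ndufb7 and 4995 for Ndufb5, the members lowest in WT hearts. Ndufs1, with 8086 bases, was not among these. The part of length in the members' order by FPKM was not tested. Of the 37 members, 36 averaged 1 FPKM or more across the 6 libraries and were tested, each resting on 1000 to 26132 fragments in every library but for Ndufa11, whose fragments could not be worked back from its FPKM. Fold changes come from a limma fit of log2(FPKM + 1) over all 11017 tested genes. A call needed both an adjusted p (Benjamini-Hochberg) under 0.05 and a log2 fold change beyond 0.5 in either direction.

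Before the members' values, 3 facts about these libraries bear on each of them. Cxxc1 itself had 8.02, 9.94 and 8.74 FPKM in Cfp1-cKO hearts, against 9.66, 12.9 and 10.03 FPKM in WT hearts, with overlapping values and no call (limma: log2 fold change -0.26, adjusted p = 0.249). The Cfp1-cKO libraries also held RNA of lung epithelium: 8 of 8 tested markers of 9 listed were called higher, and the list summed to between 3287 and 4986 FPKM in Cfp1-cKO hearts, against 0.0336 to 2.04 FPKM in WT hearts. Of these markers Sftpc, Sftpb, Sftpa1, Sftpd, Scgb1a1, Slc34a2 and Epcam were listed at 0 in the WT libraries 1 and 3. Last, called genes were mostly higher: 2325 were called higher (21.1%) and 185 lower (1.68%), and the median log2 fold change over all tested genes was 0.35. Median-of-ratios scaling, which brings that median near 0, split the calls into 384 higher (3.52%) and 356 lower (3.27%), so counts and medians of the members are given below under both scalings, and single members as deposited unless said otherwise.

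Complex I subunits tended to be lower in Cfp1-cKO hearts. Of the 36 tested members, 5 were called lower (1.68% of all tested genes were) and 0 were called higher (21.1% of all tested genes were). Ndufs7 and Ndufs1, both core subunits that carry iron-sulfur clusters, fell to 58.3% and 60.9% of their WT means. Ndufb11, Ndufa8 and Ndufb9, accessory subunits of the membrane arm, fell to 62.4%, 65.0% and 65.1% of theirs. No member passed even an unadjusted p of 0.05 in the higher direction (0 of 36), whereas 11 of 36 did in the lower one. Over all tested genes 43.8% did in either direction, and the share for the lower direction alone was not computed. That share cannot exceed the 16.4% of genes with a negative log2 fold change. The log2 fold change was negative for 32 of 36 members, as for 16.4% of all tested genes, and had a median of -0.26 (range -0.74 to 0.22), beside 0.35 over all tested genes. The values of the genotypes did not overlap for 13 members, with every Cfp1-cKO library below every WT library (3.23% of all tested genes), and for 0 members in the other direction (46.4%). Because calls in the lower direction were more frequent among strongly expressed genes, the share was computed again for genes averaging 10 FPKM or more, and was 4.42%. Every tested member lay above that level. The shares with a negative log2 fold change (16.4%) and without overlap (3.23%) were not computed again for such genes.

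**Figure D1:**
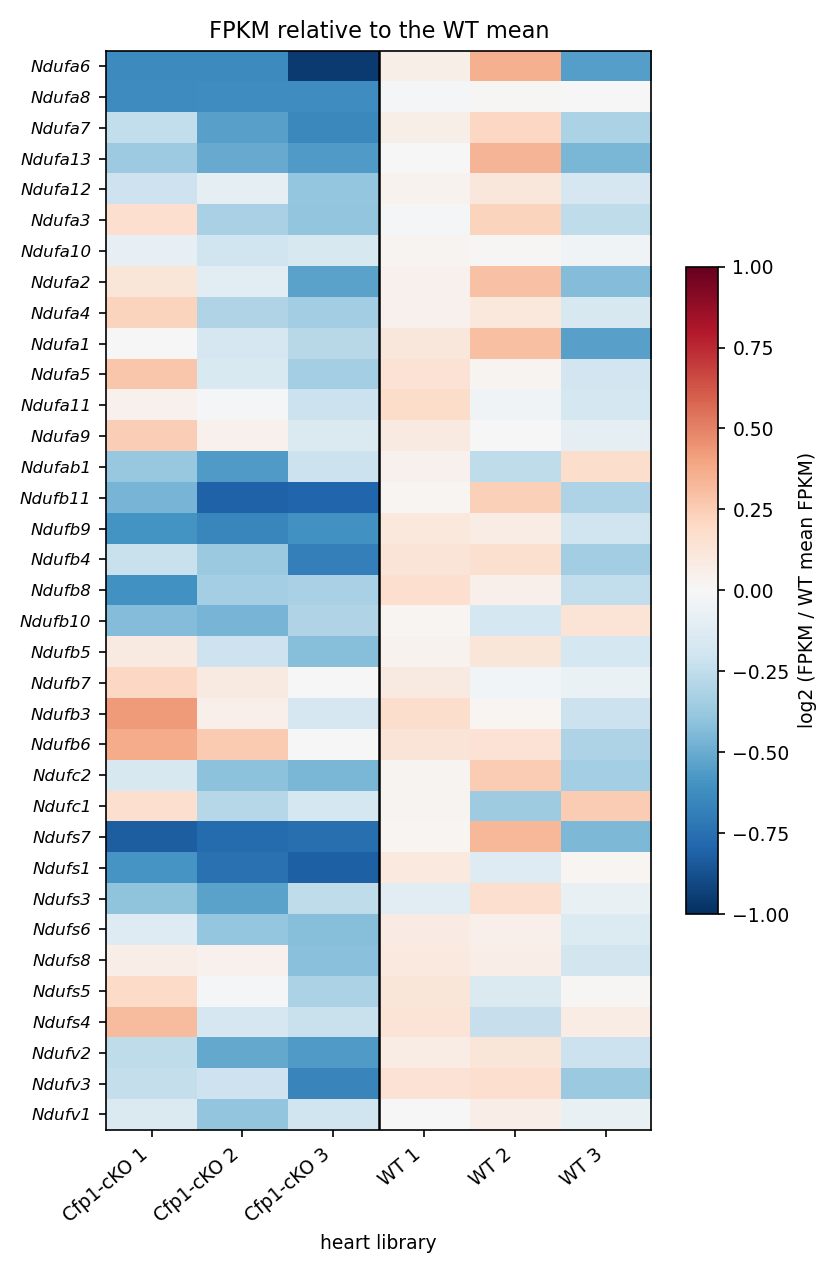
FPKM of 35 tested complex I subunits (rows, by subunit group) in the 3 Cfp1-cKO and 3 WT heart libraries (columns), as the log2 ratio to the gene's WT mean. Colours run from -1 to 1 and the plotted values from -0.96 to 0.43, and blue cells, below the WT mean, fill most of the Cfp1-cKO columns, most of all in Cfp1-cKO library 3.

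Promoters of some of these genes are known to carry sites for nuclear respiratory factor 1 (Nrf1), a sequence feature that the selection by name did not use. RefSeq gave a promoter on GRCm38.p6 for 33 of the 37 members, and the 250 bases before the start were searched on both strands. The Nrf1 core (GCGCA, any base N, then GCGC) stood in 6 of the 33 (18.2%), against 3.74% of 32851 promoters. These sites are shown on the gene's strand with the core in capitals, since they are the sequence the 6 promoters share:
Ndufa8: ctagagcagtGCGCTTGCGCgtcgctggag
Ndufa5: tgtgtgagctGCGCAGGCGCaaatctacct
Ndufa11: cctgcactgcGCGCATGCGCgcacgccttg
Ndufs5: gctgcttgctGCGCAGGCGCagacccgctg
Ndufs6: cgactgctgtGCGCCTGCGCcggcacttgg
Ndufb4: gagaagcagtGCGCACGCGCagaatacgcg
Ndufb4: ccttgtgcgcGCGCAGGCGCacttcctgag
Ndufb4: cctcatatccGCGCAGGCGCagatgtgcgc
The Ndufa8 stretch lies on chromosome 2 from 36049349 to 36049378 (minus strand), the Ndufa5 stretch on chromosome 6 from 24527697 to 24527726 (minus strand) and the Ndufa11 stretch on chromosome 17 from 56717692 to 56717721 (plus strand). Those of Ndufs5 and Ndufs6 lie on chromosome 4 from 123718265 to 123718294 and on chromosome 13 from 73328479 to 73328508, both on the minus strand. Ndufb4 was alone among the members in having 3 matches, whose cores begin 191, 79 and 22 bases before its start on chromosome 16 (37654540 to 37654569, 37654428 to 37654457 and 37654371 to 37654400, minus strand).

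The core was found both in members that fell and in members close to their WT level. Promoters were at hand for 3 of the 5 called members (Ndufa8, Ndufb11 and Ndufs7), and 1 of them, that of Ndufa8, held it. Ndufa5, Ndufa11 and Ndufs5, which also hold it, had log2 fold changes of -0.064, -0.054 and -0.045, near the upper end of the members. Ndufb4 and Ndufs6, the remaining holders, had -0.40 and -0.31, below the members' median, and were not called. The Ets and Gabpa core CCGGAAG and the Esrra core AAGGTCA stood in 3 of 33 promoters each (9.09%), against 6.91% and 4.08% of all promoters. The Yy1 core AAGATGG was in none of the 33, against 4.49%. Members' promoters held a median of 14 CpG (range 4 to 28) in these 250 bases, against 6 over all promoters. The Nrf1 core itself contains CpG, and the promoters compared for it were not matched for CpG content. The part of CpG content in the higher share of members with this core was not tested.

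Among the core subunits, 2 of 7 were called lower (1.68% of all tested genes), and the genotypes did not overlap for 6 (3.23%). The log2 fold change was negative for all 7, with a median of -0.39. After median-of-ratios scaling 3 of 7 were called lower (3.27% of tested genes), and the genotypes did not overlap for 6 (15.1%). The median was then -0.83. Ndufs7 (chromosome 10 from 80249121 to 80256794) carries the last iron-sulfur cluster before ubiquinone. Its level was 59.1, 61.3 and 61.9 FPKM in Cfp1-cKO hearts, against 106, 131 and 76.2 FPKM in WT hearts. The Cfp1-cKO libraries were close together, whereas WT library 3 was nearer to them than to WT library 2. The means were 60.8 ± 1.51 FPKM in Cfp1-cKO and 104 ± 27.5 FPKM in WT hearts (SD, n = 3 each), and the log2 fold change of -0.74 (SE 0.20 and adjusted p = 0.0359 in the limma fit) had the largest size among the members.

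Ndufs1 (chromosome 1 from 63143596 to 63176833) is the large iron-sulfur subunit of the NADH-oxidising module. It was measured at 54.8, 49.3 and 46.8 FPKM in Cfp1-cKO hearts, against 88.5, 75.6 and 83.7 FPKM in WT hearts. All Cfp1-cKO values lay well below all WT values, and the difference was several times the spread within either genotype. The means were 50.3 ± 4.10 and 82.6 ± 6.55 FPKM (SD, n = 3 each) in Cfp1-cKO and WT hearts, with a log2 fold change of -0.70 (SE 0.14 and adjusted p = 0.0163 in the limma fit), the lowest adjusted p of any member. Ndufs1 overlaps Eef1b2 on the opposite strand, whose level of 63.9, 63.1 and 53.7 FPKM in Cfp1-cKO hearts, against 51.1, 55.0 and 47.7 FPKM in WT hearts, was not lower, and whether counting used the strand is not given in the sources used here.

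Other subunits of the ubiquinone-reducing module had smaller differences. Ndufs3, which holds this module together, had 76.3, 69.6 and 84.7 FPKM in Cfp1-cKO hearts, against 93.5, 114 and 96.3 FPKM in WT hearts (limma: log2 fold change -0.39, adjusted p = 0.0882). Every Cfp1-cKO library lay below every WT library, yet the gene did not pass the test. Ndufs8, which carries clusters on the path to Ndufs7, differed from it in that its libraries overlapped, with 187, 184 and 134 FPKM in Cfp1-cKO hearts, against 191, 187 and 157 FPKM in WT hearts. Its log2 fold change was -0.097 (95% interval -0.51 to 0.31). The 5 core subunits of group s therefore ranged over log2 fold changes of -0.097 to -0.74 although their proteins sit in 1 assembled complex.

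In the NADH-binding part, Ndufv1, which holds the flavin that takes up the electrons, had 198, 167 and 191 FPKM in Cfp1-cKO hearts, against 220, 231 and 209 FPKM in WT hearts. Its partner Ndufv2, an iron-sulfur protein, had 285, 238 and 229 FPKM, against 357, 368 and 293 FPKM in WT hearts. Neither gene's values overlapped between genotypes, although Cfp1-cKO library 1 came within a few percent of WT library 3 for Ndufv2. Their log2 fold changes were -0.25 and -0.43 (adjusted p = 0.210 and 0.0811 from limma), so neither was called. Ndufv3, an accessory subunit beside them, overlapped between genotypes, with a log2 fold change of -0.34.

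**Figure D2:**
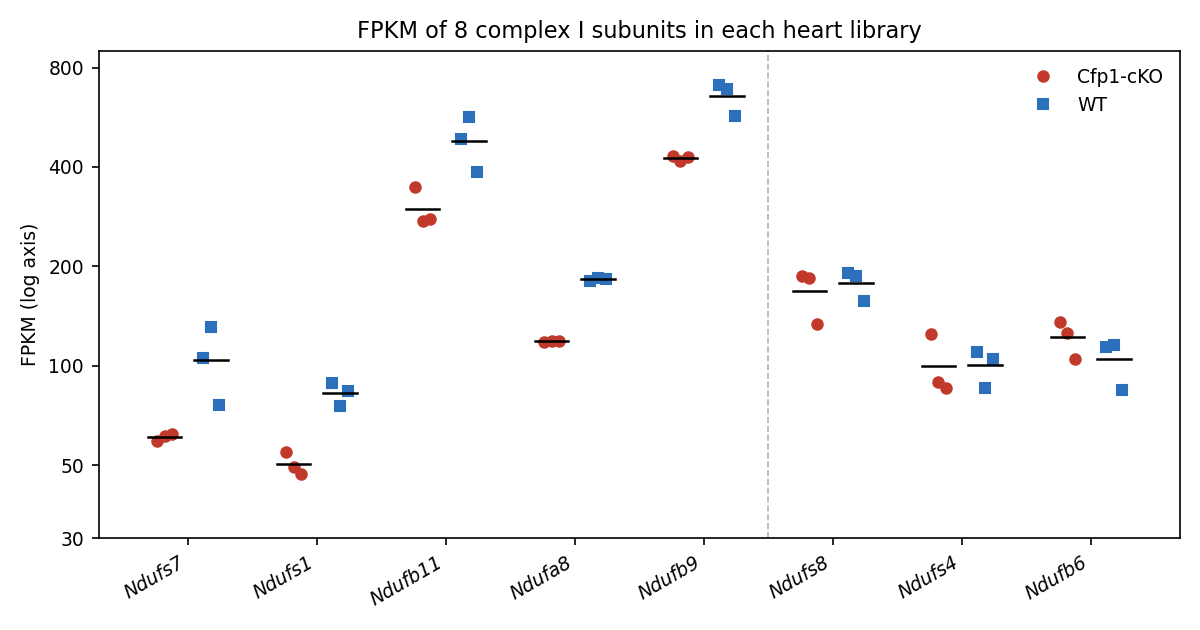
FPKM (log axis) of 8 complex I subunits in the 3 Cfp1-cKO (circles) and 3 WT libraries (squares), with arithmetic means as black lines. Left of the dashed line the 5 called members show no overlap between genotypes, and right of it Ndufs8, Ndufs4 and Ndufb6, chosen after their values were seen, show overlapping libraries.

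Of the accessory subunits of group s, Ndufs4 and Ndufs5 were near their WT levels as deposited. Ndufs4, a small subunit at the joint of the NADH-oxidising module whose loss causes a Leigh-like disease in mice, had 124, 89.3 and 85.6 FPKM in Cfp1-cKO hearts, against 110, 85.3 and 105 FPKM in WT hearts. Ndufs5, which faces the intermembrane space, had 135, 117 and 95.3 FPKM, against 129, 108 and 120 FPKM in WT hearts. In both genes Cfp1-cKO library 1 was the highest of all 6 libraries, and the genotypes overlapped. The log2 fold changes of -0.017 (95% interval -0.45 to 0.42) and -0.045 (95% interval -0.44 to 0.35) were the smallest in size of any member. Ndufs6, a zinc-binding subunit, was at 80.9% of its WT mean and was not called.

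Group a held 13 subunits, of which 1 was called lower (1.68% of all tested genes) and 12 had a negative log2 fold change (median -0.14). The genotypes did not overlap for 3 (3.23% of all tested genes). After median-of-ratios scaling 1 was called lower (3.27%), 7 did not overlap (15.1%), and the median was -0.59. Ndufa8 (chromosome 2 from 36036326 to 36049406), a cysteine-rich subunit on the intermembrane-space face, had 118, 119 and 119 FPKM in Cfp1-cKO hearts, against 181, 185 and 183 FPKM in WT hearts. No other called member had libraries this close together within each genotype, with means of 119 ± 0.289 and 183 ± 1.85 FPKM (SD, n = 3 each) in Cfp1-cKO and WT hearts. Its log2 fold change was -0.62 (SE 0.13 and adjusted p = 0.0177 in the limma fit).

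Ndufa4, the most abundant member in WT hearts, is today placed with cytochrome c oxidase rather than complex I. It had 943, 656 and 637 FPKM in Cfp1-cKO hearts, against 834, 869 and 727 FPKM in WT hearts. Cfp1-cKO library 1 was above every WT library and the other Cfp1-cKO libraries were below them, and the log2 fold change was -0.14 (95% interval -0.58 to 0.30). The other 11 subunits of group a, among them Ndufa9, a nucleotide-binding subunit near the ubiquinone site, and Ndufa13, also known as Grim19, had WT means of 57.7 to 302 FPKM and log2 fold changes of -0.69 to 0.049. At the lower end stood Ndufa6, a matrix-arm subunit that binds the acyl carrier protein, given here after its values were seen. It had 164, 163 and 131 FPKM in Cfp1-cKO hearts, against 265, 325 and 173 FPKM in WT hearts. The genotypes did not overlap, but WT library 3 lay close to the Cfp1-cKO values, and at 60.1% of the WT mean the gene was not called (limma: log2 fold change -0.69, SE 0.24, adjusted p = 0.0629). Ndufab1, the acyl carrier protein itself, had 10.1, 8.91 and 11.4 FPKM in Cfp1-cKO hearts, against 13.6, 11.1 and 14.9 FPKM in WT hearts. Its genotypes overlapped between Cfp1-cKO library 3 and WT library 2, and it was not called (limma: log2 fold change -0.35, adjusted p = 0.140).

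Group b, the accessory subunits of the distal membrane arm, was the most spread. Of its 10 members 9 were tested, and 2 were called lower (1.68% of all tested genes). The log2 fold change was negative for 6 and positive for 3, and the median was -0.39. After median-of-ratios scaling 4 were called lower (3.27% of tested genes), and the median was -0.83. Ndufb9 (chromosome 15 from 58933810 to 58939489), which binds the acyl carrier protein at the membrane arm, had 433, 416 and 430 FPKM in Cfp1-cKO hearts, against 706, 689 and 570 FPKM in WT hearts. It was the second in abundance among the members in WT hearts, and its Cfp1-cKO libraries were tightly grouped below all WT libraries (426 ± 9.23 FPKM in Cfp1-cKO and 655 ± 74.3 FPKM in WT hearts, SD, n = 3 each). Its log2 fold change was -0.61 (SE 0.15 and adjusted p = 0.0268 in the limma fit). Ndufb11 (X chromosome from 20615326 to 20617619), a subunit that crosses the membrane, had 347, 274 and 277 FPKM in Cfp1-cKO hearts, against 485, 567 and 386 FPKM in WT hearts. Cfp1-cKO library 1 and WT library 3 were nearest to each other without overlap. The means were 299 ± 41.5 and 479 ± 90.4 FPKM (SD, n = 3 each) in Cfp1-cKO and WT hearts, with a log2 fold change of -0.67 (SE 0.19 and adjusted p = 0.0384 in the limma fit).

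Ndufb5, an accessory membrane-arm subunit chosen because its transcript was also assayed by qRT-PCR in this work, had 42.4, 34.5 and 29.7 FPKM in Cfp1-cKO hearts, against 40.9, 43.4 and 35.2 FPKM in WT hearts. Cfp1-cKO library 1 lay among the WT values and the others below them, and the log2 fold change was -0.17 (95% interval -0.57 to 0.23, adjusted p = 0.463 from limma). By qRT-PCR on ventricles the paper reports Ndufb5 as strongly reduced in Cfp1-cKO mice. The primers it prints for Ndufb5 are identical to those it prints for a ribosomal RNA, so which transcript was assayed is uncertain. Ndufb8, the third lowest of the members in WT hearts and a common marker of assembled complex I on blots, had 23.2, 28.0 and 28.3 FPKM in Cfp1-cKO hearts, against 39.8, 36.6 and 29.8 FPKM in WT hearts. Its genotypes did not overlap, by a small gap, and it was not called (limma: log2 fold change -0.40, adjusted p = 0.102). The 5 members of group b not yet described ranged over log2 fold changes of -0.40 to 0.22. Ndufb6, Ndufb3 and Ndufb7 were, with Ndufa9, the members with a positive value, and were at 116%, 109%, 107% and 104% of their WT means, each with overlapping genotypes and no call. Group c had 2 members, Ndufc1 and Ndufc2, with overlapping genotypes and log2 fold changes of -0.076 and -0.32.

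Ndufb2 was the member that could not be tested. It was listed at 0.757, 0.789 and 1.08 FPKM in Cfp1-cKO hearts, against 0.446, 0.754 and 0.799 FPKM in WT hearts. All other members were above 8 FPKM in every library, and Ndufb2 rested on 57 to 110 fragments. Its annotation lies under that of Gm42420, a protein-coding gene on the same strand that is not among the rows used here, so the level of Ndufb2 is uncertain. Ndufb8 and Ndufb9 overlap a same-strand protein-coding gene too (Gm20538 and Gm49356, likewise not among the rows), and Ndufa13 overlaps Yjefn3, which had 1.28, 1.09 and 1.64 FPKM in Cfp1-cKO hearts, against 2.60, 3.74 and 2.84 FPKM in WT hearts. In all, 6 members overlap an annotated gene on the same strand and 15 on the opposite one, and the part of this in their values was not tested.

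By place in the complex, the matrix arm (16 members, all tested) had 2 called lower, and the membrane arm (18 of 19 tested) had 3. The median log2 fold changes were -0.29 and -0.17, and the genotypes did not overlap for 7 and 6 members. Over all tested genes 1.68% were called lower, and 3.23% had every Cfp1-cKO library below every WT library. After median-of-ratios scaling 3 and 5 members were called lower (3.27% of tested genes), and 11 in each arm did not overlap (15.1%). The medians were then -0.74 and -0.61. By role, the medians as deposited were -0.39 for the 7 core subunits and -0.17 for the 29 tested accessory subunits. These differences between groups of subunits are descriptions, without a test, because the members share the same 6 libraries. A member's level in WT hearts said little about its fold change: across the 36 genes, which are not independent, Pearson's r was -0.14 and Spearman's rho -0.10.

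**Figure D3:**
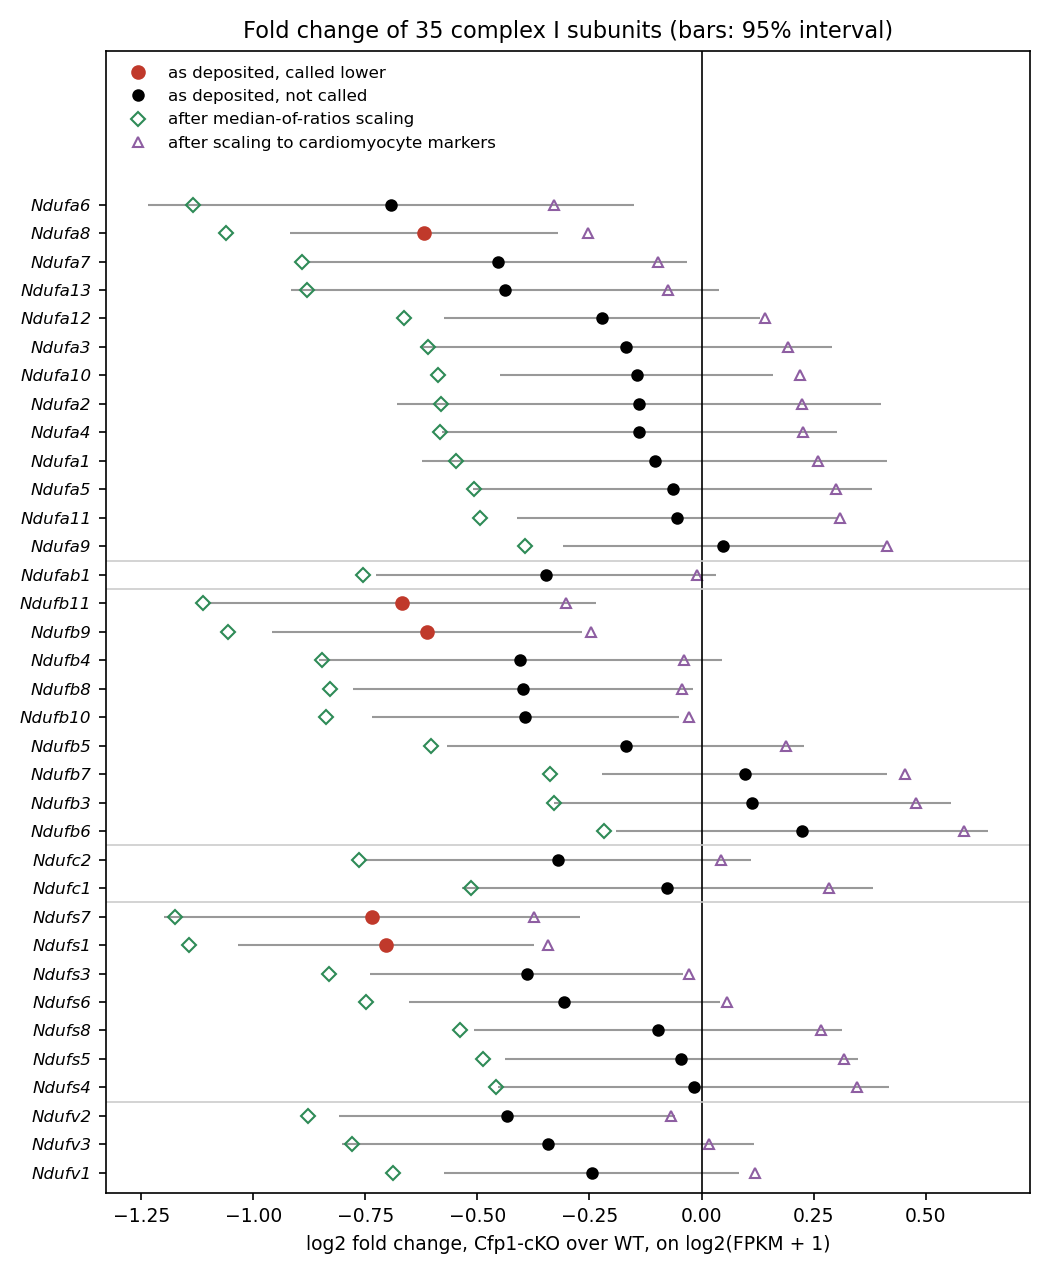
Log2 fold change (Cfp1-cKO over WT) of 35 tested complex I subunits by subunit group, with 95% intervals for the values as deposited (filled circles, red where called lower), and the same after median-of-ratios scaling (diamonds) and after scaling to cardiomyocyte markers (triangles). The circles run from -0.74 to 0.22, the diamonds are all below 0, and the triangles lie on both sides of 0.

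The libraries moved as blocks across the members. Summed over all members, the level was 6436, 5490 and 5172 FPKM in Cfp1-cKO hearts, against 7303, 7515 and 6097 FPKM in WT hearts. Cfp1-cKO library 1 therefore lay above WT library 3 in the sum, and was the highest of its genotype for 28 of 36 members. Cfp1-cKO library 3 was the lowest of all 6 libraries for 20 members, and WT library 3 was the highest of its genotype for 3. The mean log2 deviation of the members from their WT means was -0.14, -0.31 and -0.41 in the Cfp1-cKO libraries 1, 2 and 3. In the same libraries the 9 lung markers summed to 4542, 3287 and 4986 FPKM, with Sftpc and Scgb1a1 the highest of the list in each. The markers differed in their order: Sftpc, a surfactant protein of the alveolus, had 1202, 2163 and 3232 FPKM, and Scgb1a1, a secreted protein of the airways, had 2904, 405 and 671 FPKM. Sftpb, Sftpa1, Sftpd, Slc34a2, Cxcl15 and Epcam were, like Sftpc, lowest in library 1 and highest in library 3. Foxj1, like Scgb1a1, was highest in library 1 and lowest in library 2. No relation was tested over 3 libraries, and since every Cfp1-cKO library and no WT library had lung RNA at this level, genotype and lung RNA cannot be told apart here.

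The result depended on which libraries entered. Without WT library 3, 8 members were called lower. Without Cfp1-cKO library 1 there were 3 (Ndufa8, Ndufs1 and Ndufb11), and without WT library 2 there were 2 (Ndufa8 and Ndufs1). Without Cfp1-cKO library 2, Cfp1-cKO library 3 or WT library 1 there were 0 in the limma fit, and 6, 7 and 5 members had an unadjusted p below 0.05 in the lower direction. The fold changes of the called members stayed between -0.94 and -0.54 over these fits, so the calls were lost with little change in size: without Cfp1-cKO library 2, the adjusted p was 0.0719 for Ndufs1, 0.0759 for Ndufa8, 0.106 for Ndufb9, 0.113 for Ndufs7 and 0.139 for Ndufb11 (limma). It ran from 0.0512 (Ndufa8) to 0.105 (Ndufb11) without Cfp1-cKO library 3 and from 0.0699 (Ndufs1) to 0.114 (Ndufb11) without WT library 1. Ndufb9 and Ndufs7 had adjusted p = 0.0527 and 0.0782 without Cfp1-cKO library 1 in the limma fit, and 0.0580 and 0.0674 without WT library 2, where Ndufb11 had 0.0838. Calls over the whole table dropped as well, to 45 lower and 457 higher genes without Cfp1-cKO library 2, against 185 and 2325 with all 6 libraries.

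The scaling between libraries moved these values too. After median-of-ratios scaling all 36 members had a negative log2 fold change (50.1% of tested genes), with a median of -0.71, and 9 were called lower (3.27% of tested genes) and 0 higher. These 9 were the 5 above with Ndufs3, Ndufab1, Ndufb8 and Ndufb10, the last a cysteine-rich subunit of the membrane arm, and 23 members had no overlap between genotypes (15.1% of tested genes). Ndufs7, Ndufs1 and Ndufb11 then had log2 fold changes of -1.17, -1.14 and -1.11. Relative to the median of all tested genes, the median member was lower by a log2 difference of -0.61 as deposited and of -0.71 after this scaling.

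Set against cardiomyocyte markers, no complex I subunit was called in either direction. Of 14 such markers 4 were called lower (Nebl, Ryr2, Myl3 and Tnnt2) and 0 higher, beside 1.68% and 21.1% of all tested genes. The median log2 fold change of the 14 was -0.38, below that of the members. The list was not uniform: 4 markers had positive values without a call, namely Des (0.49), Mybpc3 (0.48), Actn2 (0.33) and Myl2 (0.05). The list summed to 10227, 7788 and 10445 FPKM in Cfp1-cKO hearts, against 13201, 9442 and 12867 FPKM in WT hearts. When each library was scaled to the geometric mean of this list, 0 of 36 members were called in either direction by limma, 0 had an unadjusted p below 0.05, and the median log2 fold change was 0.10, beside 0.64 over all tested genes. That scaling called 51.8% of tested genes higher and 0.636% lower. The 5 members called as deposited kept a negative value there (-0.25 to -0.37). Their standard errors were larger as well, for example 0.30 for Ndufa8 and 0.29 for Ndufs1, against 0.13 and 0.14 as deposited. The absence of calls under this scaling therefore does not show that the differences were gone. In whole hearts, fewer cardiomyocytes and less of these transcripts per cardiomyocyte cannot be told apart.

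Among markers of other cell types, 3 of 5 for macrophages, 1 of 5 for fibroblasts and 1 of 5 for endothelium were called higher, beside 21.1% of all tested genes, and 0 were called lower. The list medians were 0.87, 0.95 and 0.27, beside 0.35 over all tested genes, and after median-of-ratios scaling 1, 0 and 0 of these markers were called higher. Of 4 erythroid markers 3 were tested and 0 called, with a median of 1.91. The erythroid list summed to 965, 1667 and 197 FPKM in Cfp1-cKO hearts, against 52.1, 904 and 86.1 FPKM in WT hearts, and so overlapped between genotypes. Among 4 atrial markers 2 were called lower and 1 higher, beside 1.68% and 21.1% of all tested genes. The atrial list summed to 344 to 635 FPKM in Cfp1-cKO hearts, against 845 to 1472 FPKM in WT hearts. The 4 skeletal muscle markers in the table summed to at most 2.40 FPKM in any library, with Myh2 listed at 0 in 5 of 6. The part of any of these in the members' values was not tested.

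Partners of the nuclear-encoded subunits had few calls as deposited. The ND subunits from the mitochondrial genome, which form the proton-pumping core, had 0 of 6 tested genes called by limma (0 at an unadjusted p below 0.05). All 6 had a negative log2 fold change with a median of -0.29, close to that of the members. After median-of-ratios scaling 1 of the 6, mt-Nd6, was called lower (-0.89), beside 3.27% of tested genes. The median was then -0.74, and the genotypes did not overlap for all 6 (15.1% of tested genes). Their sum was 100427, 114621 and 103257 FPKM in Cfp1-cKO hearts, against 126588, 114077 and 127326 FPKM in WT hearts, and so overlapped between genotypes. Genes of the mitochondrial genome as a whole took 34.7%, 31.8% and 29.4% of fragments in Cfp1-cKO hearts, against 38.9%, 38.6% and 36.6% in WT hearts. Among the assembly factors, which build the complex without staying in it, 0 of 17 were called lower and 1 was called higher, beside 1.68% and 21.1% of all tested genes. Their median was 0.22, also below that of all tested genes (0.35), and -0.19 after median-of-ratios scaling. The called gene was Ndufaf8, at 24.7, 22.7 and 17.6 FPKM in Cfp1-cKO hearts, against 16.0, 9.48 and 13.1 FPKM in WT hearts (limma: log2 fold change 0.73, adjusted p = 0.0425), and after median-of-ratios scaling it was not called (0.31). Ndufaf4 stood at the other end of the list with -0.43 and was called lower after that scaling (-0.86).

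Compared with the rest of oxidative phosphorylation, complexes I and III had the smallest shares of called genes after the ND genes. Calls in the lower direction numbered 2 of 4 for complex II, 1 of 9 for complex III, 5 of 13 for complex IV (cytochrome c oxidase) and 9 of 16 for ATP synthase. Complex I had 5 of 36, and 1.68% of all tested genes were called lower. In the higher direction 0 genes of these lists were called (21.1% of all tested genes). After median-of-ratios scaling the lower calls numbered 3 of 4, 3 of 9, 6 of 13 and 12 of 16, against 9 of 36 for complex I and 3.27% of tested genes. The medians were -0.41, -0.43, -0.58 and -0.64 for complexes II, III, IV and ATP synthase, against -0.26 for complex I. No test compared these lists. The most changed genes outside complex I were larger in size than any of its members: Atp5j was at 61.2 ± 2.91 FPKM in Cfp1-cKO and 171 ± 30.3 FPKM in WT hearts (SD, n = 3 each, log2 fold change -1.45), and Cox6a2, a cytochrome c oxidase subunit of heart and skeletal muscle, had a log2 fold change of -1.43. Both are named here as the largest changes in their lists. Scaled to cardiomyocyte markers, 2 complex IV genes and 1 ATP synthase gene were still called lower, and 0 complex I genes were.

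**Figure D4:**
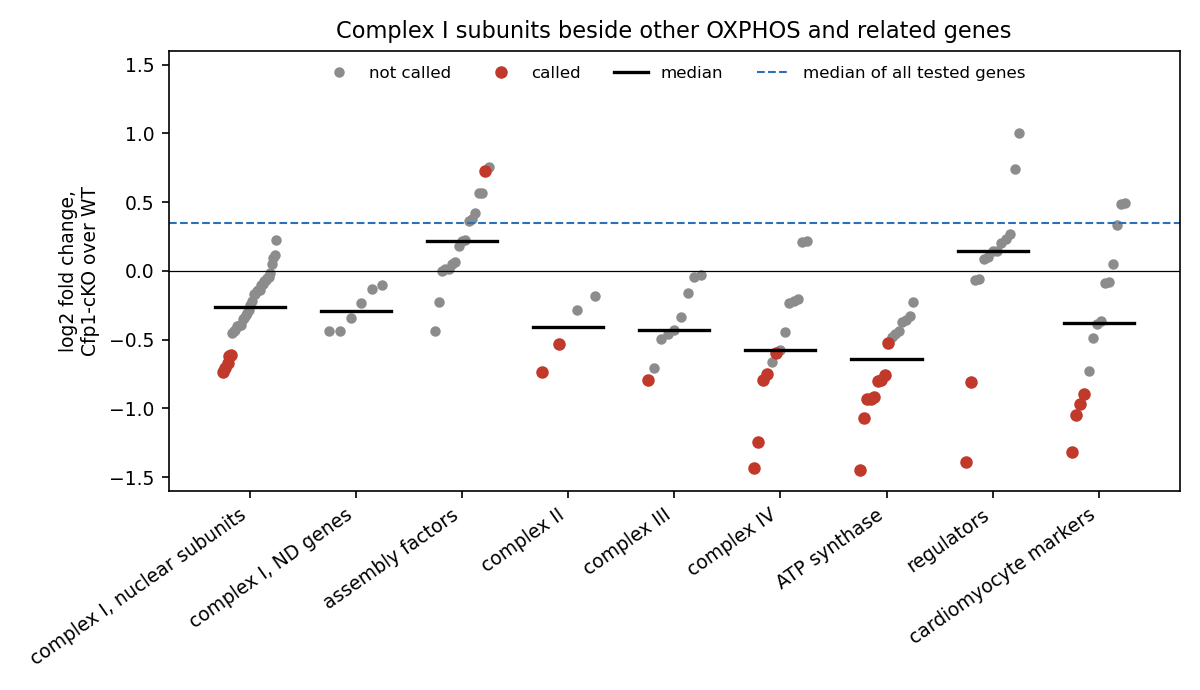
Log2 fold change (Cfp1-cKO over WT, values as deposited) of each tested gene in complex I, its ND genes and assembly factors, the other complexes, transcriptional regulators and cardiomyocyte markers, with red points for called genes, black lines for list medians and a dashed line for the median of all tested genes (0.35). The nuclear complex I median of -0.26 lies above those of complexes II, III and IV and ATP synthase (-0.41 to -0.64) and below that of the assembly factors (0.22).

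Among 13 transcriptional regulators of mitochondrial genes, 2 were called lower and 0 higher, beside 1.68% and 21.1% of all tested genes. Their median log2 fold change was 0.14, beside 0.35 over all tested genes. After median-of-ratios scaling 2 were called lower and 0 higher, with a median of -0.22. Perm1, a muscle regulator of oxidative genes, had 22.0, 14.9 and 19.7 FPKM in Cfp1-cKO hearts, against 25.8, 36.9 and 39.1 FPKM in WT hearts (limma: log2 fold change -0.81, adjusted p = 0.0306). Klf15, a metabolic regulator of heart muscle, had 6.27, 4.23 and 11.2 FPKM, against 16.2, 28.4 and 15.6 FPKM in WT hearts (limma: log2 fold change -1.39, adjusted p = 0.0249). For both, all Cfp1-cKO libraries lay below all WT libraries. Ppargc1a, the coactivator Pgc-1 alpha, went the other way without a call, at 76.0, 42.6 and 28.2 FPKM in Cfp1-cKO hearts, against 19.5, 24.3 and 22.7 FPKM in WT hearts (limma: log2 fold change 1.00, adjusted p = 0.0511). Its highest value was in Cfp1-cKO library 1, the library with the highest complex I levels of its genotype, and a relation between them was not tested. Nrf1 itself had 1.29, 1.41 and 1.35 FPKM in Cfp1-cKO hearts, against 0.968, 1.68 and 1.06 FPKM in WT hearts, and the genotypes overlapped.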

How the data were processed

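RNA-seq covered 3 Cfp1-cKO and 3 WT whole-heart libraries. The authors aligned reads, counted fragments and deposited 1 FPKM value for each gene and library. The submitters' processing notes name CASAVA, Bowtie2 2.2.3, HISAT2 2.1.0, TopHat2, HTSeq 0.6.0, DESeq2 and GRCm38 without their order, and the methods give the address of a chicken genome. The extraction text in the labels speaks of retinas, which these hearts are not. FPKM came in steps of 1 fragment (tolerance 0.02 fragments) for 99.96% of genes, with the GENCODE length for 23964 genes and another for 2905, which gave totals of 16672652 to 22700811 fragments. Replicates differed by more than sampling noise (chi-square per degree of freedom 31.4 to 79.8).

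FPKM are not counts, so limma 3.58.1 (R 4.3.3) with a variance trend was fitted to log2(FPKM + 1) for the 11017 genes averaging 1 FPKM or more, two-sided, adjusted over all of them. The pseudocount understates the fold changes of low genes. The fit was tested on simulated data. The thresholds were those of the study. Per-library values were given for called members, the 3 highest and 3 lowest in WT hearts, the 2 largest and 2 smallest fold changes, Ndufb5 and the 7 core subunits, of which 1 is counted but not reported here. Members and gene lists were chosen with earlier results of these data known. Alternatives covered pseudocount, filter, scaling, mitochondrial genes, variance model, library weights, replicate number, fold threshold and each library left out. Voom on recovered fragments was added after seeing the data. Median-of-ratios factors came from genes averaging 1 FPKM or more. Python 3.11.15 with numpy 2.4.6, pandas 2.3.3 and matplotlib 3.10.9 made tables and plots. Annotation was GENCODE and RefSeq. Columns of gene descriptions were not used.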

Additional observations from a re-analysis of the deposited data

How the results depend on the processing

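With 5 members called lower as deposited, no filter left 2, median-of-ratios scaling 9, scaling to cardiomyocyte markers 0, library weights 10, and leaving out 1 library 0 to 8. Pseudocount 0.1, a filter at 5 FPKM, removal of mitochondrial genes, no variance trend, no fold threshold and voom on recovered fragments (5 of 35 members, chosen after seeing the data) each kept the same 5, and upper-quartile scaling kept 4. No member was called higher under any of these. The median member moved to -0.71 with median-of-ratios scaling and to 0.10 with cardiomyocyte scaling, and to between -0.33 and -0.22 with 1 library left out. Over the whole table, 2510 calls became 1609 without a filter, 1179 at 5 FPKM, 740 with median-of-ratios, 867 with upper-quartile and 5857 with cardiomyocyte scaling, 1471 without mitochondrial genes, 4399 with library weights, and 502 to 2815 with 1 library left out. Calls in the comparison lists, 20 as deposited, became 12 without a filter, 13 with cardiomyocyte scaling and 5 to 23 with 1 library left out. The causes were not tested.

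Direction reversed with cardiomyocyte scaling for Ndufa1 (0.26), Ndufa2 (0.22), Ndufa3 (0.19), Ndufa4 (0.23), Ndufa5 (0.30), Ndufa10 (0.22), Ndufa11 (0.31), Ndufa12 (0.14), Ndufb5 (0.19), Ndufc1 (0.28), Ndufc2 (0.044), Ndufs4 (0.35), Ndufs5 (0.32), Ndufs6 (0.058), Ndufs8 (0.27), Ndufv1 (0.12) and Ndufv3 (0.018), all log2 fold changes. The 4 members with positive values reversed with median-of-ratios scaling (Ndufa9 -0.39, Ndufb3 -0.33, Ndufb6 -0.22, Ndufb7 -0.34) and with upper-quartile scaling (-0.19, -0.12, -0.013 and -0.14 in the same order). Ndufa9 also reversed without mitochondrial genes (-0.015) and with library weights (-0.041), as did Ndufb3 with weights (-0.071). With 1 library left out, values spanned 0 for Ndufa1 (-0.36 to 0.066), Ndufa2 (-0.34 to 0.039), Ndufa5 (-0.24 to 0.068), Ndufa9 (-0.048 to 0.14), Ndufa11 (-0.14 to 0.041), Ndufb3 (-0.048 to 0.25), Ndufc1 (-0.24 to 0.061), Ndufs4 (-0.18 to 0.082), Ndufs5 (-0.16 to 0.087) and Ndufs8 (-0.18 to 0.058).

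Same-numbered libraries of the genotypes correlated weakly in their deviations (r = 0.108, 0.0361 and 0.104), each best with its own number, a hint from the data and not the design, so they were not taken as pairs. With the replicate number as a block, 1749 genes and 5 members were called (Ndufa6 in, adjusted p = 0.0452, and Ndufs7 out, adjusted p = 0.0519, limma), 20 genes of the comparison lists, and the median member stayed at -0.26. The tested members with recovered fragments (35 of 36) had at least 1000 a library.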
